A study of Arabidopsis thaliana with 30 samples.

Results

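The comparison set the polysomal mRNA of germinating Arabidopsis thaliana seeds at 48 h after the start of imbibition (HAI) against that at 26 HAI, gene by gene. Its 6 arrays, 3 titled as polysomal mRNA at 26 h and 3 at 48 h, were chosen by title from the 30 arrays of the series. The series followed total mRNA and polysomal mRNA from the dry seed to the seedling at 0, 6, 26, 48 and 72 HAI, with 3 replicates for each fraction and time. All seeds were of the accession Columbia (Col-0), stored until dormancy was lost, and were imbibed with water on blotter paper in continuous light with no other treatment. The series therefore compared stages of 1 genotype, and time was the factor that differed between the 6 arrays. Per the study's methods, 26 HAI was the time when seed coats began to rupture, and by 48 HAI the radicle had emerged in most seeds. Whole seeds and seedlings were extracted, each replicate came from a bulk of plants, and the polysomal RNA was taken from the polysome region of a sucrose gradient. The labels give total RNA as the molecule of every array, so the fraction was taken from the titles.

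A polysome is an mRNA with several ribosomes on it, and mRNA recovered from polysomes stands for messages that are engaged in translation. During germination, Arabidopsis seeds first use mRNAs and reserves laid down while the seed matured, under the control of abscisic acid, and then take up growth under gibberellin. After the radicle has emerged, the embryo root forms root hairs, cells divide, and the cotyledons build photosynthetic plastids in the light. The level on these arrays is a log2 signal scaled to a common distribution, so each change is relative to the other mRNAs of the same fraction and does not count ribosomes per message.

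The 6 arrays were alike in distribution, as the scaling to a common distribution makes them. Median levels over all 27827 genes lay between 3.85 and 4.06, and between 48.5% and 50.6% of genes were above the noise level of 4. Pairwise Pearson correlations across genes were 0.985 to 0.991 among the 26 HAI arrays, 0.980 to 0.983 among the 48 HAI arrays and 0.899 to 0.910 between the times; genes are not independent replicates. One array outside the comparison, replicate 3 of polysomal mRNA at 72 HAI, stood apart in seed messages. The mean level of the 9 seed storage protein genes was 6.64 on it and 3.47 on each of the other 2 arrays of that group. Because the groups share 1 estimate of spread per gene, the comparison was also fitted without that array, and 2393 genes higher and 2499 genes lower were then called, as with it.

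Genes entered the test when every replicate of any 1 of the 10 groups exceeded 4, and 17061 genes did so. A gene was called if limma's moderated test gave a Benjamini-Hochberg adjusted p under 0.05 and the log2 change was above 1 in size. By this rule 2393 genes (14% of those tested) were higher at 48 HAI and 2499 (14.6%) were lower, while 12169 were not called. The median log2 change was -0.10 over all genes tested, with a median standard error of 0.21. The rises reached further than the falls: 368 called genes rose by more than 3 on the log2 scale and 147 fell by more than 3. The 3 levels at 48 HAI lay above all 3 levels at 26 HAI for 28% of genes tested and below them for 35.4%. Of the called genes, 2385 of those higher and 2492 of those lower had no overlap. Many calls crossed the noise level. Among the genes called higher, 1269 were at or below 4 on all 26 HAI arrays, and among those called lower, 659 were at or below 4 on all 48 HAI arrays. The p-values rest on 1 moderated estimate of spread per gene, taken from the biological replicates of all 10 groups and not from the compared arrays alone. With 3 arrays per group, the number of replicates limits the precision.

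**Figure D1:**
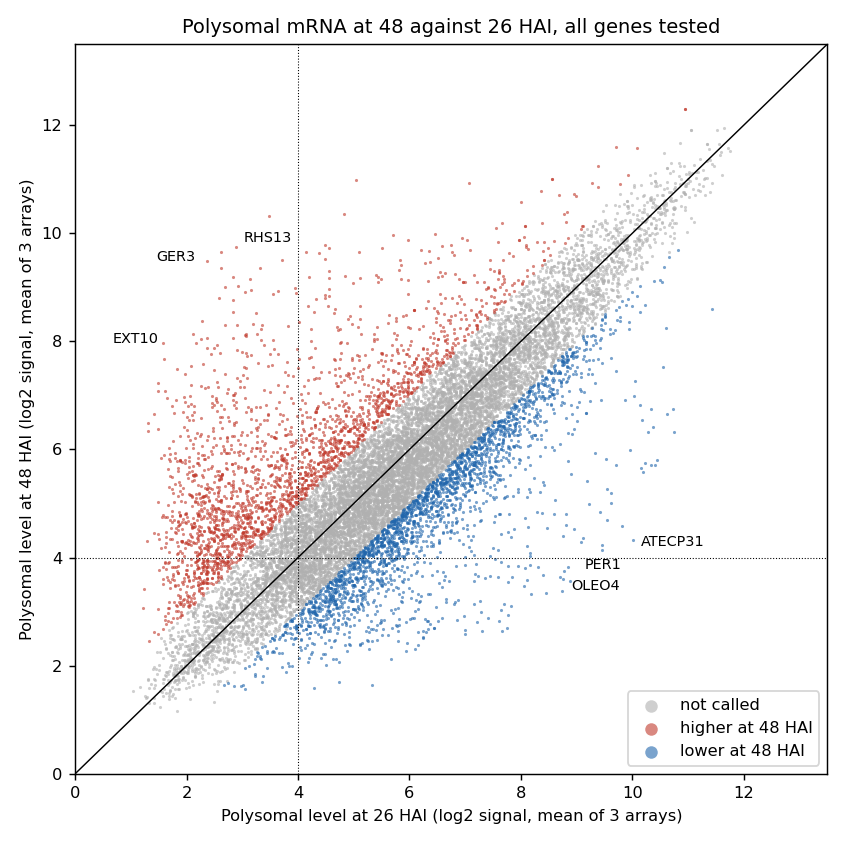
Mean polysomal level (log2 signal, 3 arrays) at 48 HAI against that at 26 HAI for the 17061 genes tested, with genes called higher in red and lower in blue; the solid line marks equal levels and dotted lines mark the noise level of 4. The 2393 genes called higher include many that lay left of the noise line at 26 HAI, such as GER3 and EXT10, and ATECP31 is among those that fell furthest.

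The gene that rose furthest was GER3 (AT5G20630), a germin-like protein of the cell wall. Its levels were 2.96, 2.21 and 1.90 at 26 HAI and 9.72, 9.52 and 9.22 at 48 HAI, a log2 change of 7.13 with a standard error of 0.41 and an adjusted p of 1.32e-13. All 26 HAI levels lay below the noise level and all 48 HAI levels far above it. Where a gene was at or below 4 on every array of a group, a bound was taken as the mean of the bright group against the higher of 4 and the gene's own level, which put GER3 at least 44.8-fold higher at 48 HAI. RHS13 (AT4G02270), a root hair specific gene, was at 2.54, 3.63 and 2.47 and then at 10.02, 9.66 and 9.55, at least 53.6-fold higher. AT5G04120, which the RefSeq table lists without a name, went from 2.37, 2.64 and 2.84 to 9.87, 9.66 and 9.45, at least 50.6-fold higher. The groups of all 3 genes were apart by more than 5 log2 units between their nearest arrays. PPa5 (AT4G01480), a soluble inorganic pyrophosphatase, changed by 6.73 and EXT10 (AT5G06640), a structural extensin of the wall, by 6.4. PETE1 (AT1G76100), a plastocyanin that carries electrons between the thylakoid complexes, was at 3.15, 3.10 and 2.27 and then at 9.16, 9.22 and 9.18. PORA (AT5G54190), a protochlorophyllide reductase of chlorophyll synthesis, changed by 6.31, and PSBQ-2 (AT4G05180), a subunit of the oxygen-evolving complex, by 6.22. GH3.3 (AT2G23170), which conjugates auxin to amino acids, was at 1.85, 2.38 and 2.58 and then at 8.39, 8.50 and 8.25. The auxin conjugating gene was thus below noise on each 26 HAI array. JAL22 (AT2G39310), a jacalin-related lectin, changed by 6.11, the sulfotransferase ST4B (AT1G13420) by 6.09, and the unnamed AT4G23680 by 6.82. Adjusted p-values of these 12 genes were 5.18e-12 or lower.

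Among the 12 genes that fell furthest, those with a known product included late embryogenesis abundant (LEA) proteins, an oleosin and a seed peroxiredoxin. ATECP31 (AT3G22500), a LEA protein, was at 9.72, 9.91 and 10.38 at 26 HAI and at 5.09, 3.25 and 4.60 at 48 HAI. It fell by 5.69 on the log2 scale with a standard error of 0.43 and an adjusted p of 2.05e-11. PER1 (AT1G48130), a peroxiredoxin of the seed, went from 9.23, 9.47 and 9.64 to 4.84, 3.59 and 4.28, and fell by 5.21. OLEO4 (AT3G27660), an oleosin that coats oil bodies, went from 8.53, 8.56 and 9.18 to 3.95, 3.86 and 2.99, at least 27-fold lower. For each of them the lowest 26 HAI level stood more than 4 log2 units above the highest 48 HAI level. ECP63 (AT2G36640), another LEA protein, fell by 5.10, and MLP31 (AT1G70840), an MLP-like protein, fell by 5.36 with a standard error of 0.63. UP6 (AT1G16730), listed as an unknown protein, fell by 5.31. The unnamed AT2G21820, AT2G15010, AT5G07330, AT1G14940, AT3G15280 and AT1G02700 fell by between 5.03 and 5.32. Adjusted p-values of these 12 genes were 2.54e-06 or lower. The 48 HAI arrays differed among themselves for such genes. MLP31 was at 4.48, 2.13 and 3.53 there, and AT2G15010 at 5.69, 3.18 and 4.86, with replicate 2 lowest for both. The standard errors also take in the polysomal 72 HAI arrays, where MLP31 was at 1.24, 2.18 and 5.82.

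**Figure D2:**
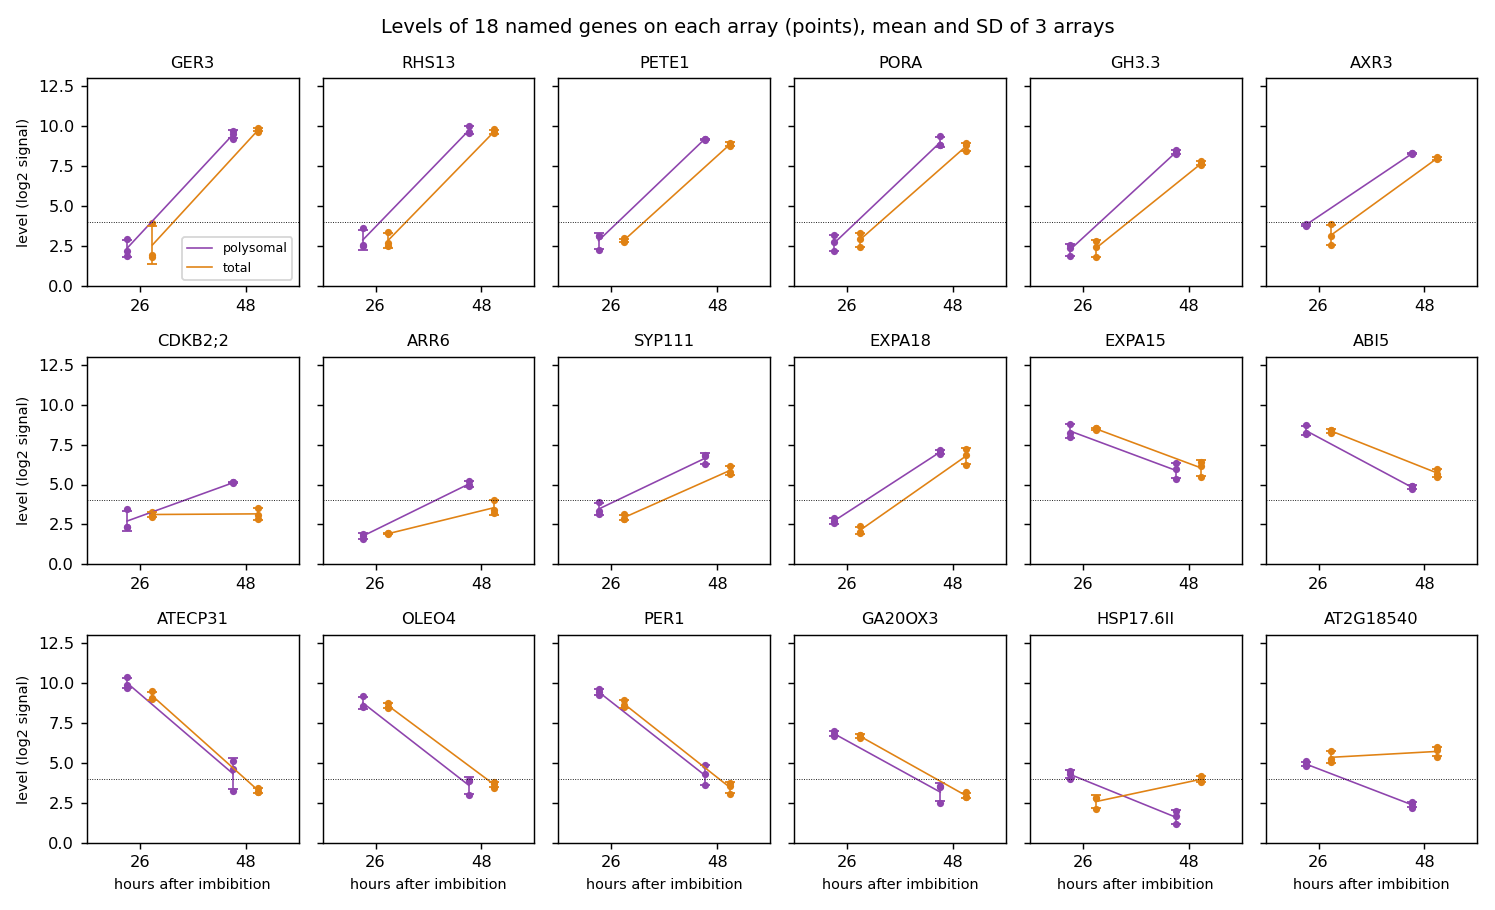
Levels (log2 signal) of 18 named genes at 26 and 48 HAI on each array, polysomal in purple and total in orange; points are arrays, and lines and bars give the mean and SD of 3 arrays, with the noise level of 4 dotted. GER3, RHS13 and PETE1 rise from below the dotted line in both fractions, ATECP31 and OLEO4 fall in both, and AT2G18540 falls in the polysomal fraction while its total mRNA stays above the dotted line.

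Seed reserve messages fell as a group. The lists that follow were assembled from textbook knowledge, and members outside the naming rule are named with their values already seen. Each count of members called stands beside 14% higher and 14.6% lower over all genes tested. Counts are over tested members, and members low at every stage did not pass the filter. For lists that were low until 48 HAI, the counts of rises are therefore descriptions. All 9 seed storage protein genes fell, where 14.6% of genes tested did, with a median log2 change of -3.79 and a range of -4.40 to -2.94. CRA1 (AT5G44120), a 12S globulin precursor, was at 10.26, 10.09 and 10.77 and then at 7.16, 5.79 and 6.31, and fell by 3.95. The 2S albumin genes SESA3 (AT4G27160) and SESA5 (AT5G54740) fell by 4.40 and 4.28, and the globulin CRU3 (AT4G28520) by 3.69. CRA1 thus remained above noise at 48 HAI, while SESA3 was at 2.98, 2.41 and 3.01 there, all below it. All 6 oil body genes fell, with a median of -4.47, led by OLEO4 and by OLEO1 (AT4G25140), which went from 10.05, 10.05 and 10.46 to 6.10, 5.82 and 4.82. Of 20 LEA proteins and dehydrins, which protect dry cells, 15 fell and 1 rose, with a median of -3.24. RAB18 (AT5G66400), an abscisic acid responsive dehydrin, was at 10.66, 10.67 and 10.91 and then at 6.72, 6.19 and 6.08. EM1 (AT3G51810) and GEA6 (AT2G40170), both group 1 LEA proteins, fell by 4.47 and 4.0. The dehydrin that rose was ERD10 (AT1G20450), from 4.25, 4.22 and 4.29 to 5.10, 5.27 and 5.70, a log2 change of 1.1. Without replicate 3 at 48 HAI it was 0.93 and ERD10 was no longer called. The 5 seed maturation marker genes all fell, but they are also members of the storage protein, oil body, LEA and aquaporin lists. Their mean level lay between 9.24 and 9.89 on the 26 HAI arrays and at 6.02, 5.09 and 5.36 on the 48 HAI arrays. In such whole-seed extracts, fewer cells of a type and less RNA per cell cannot be told apart.

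**Figure D3:**
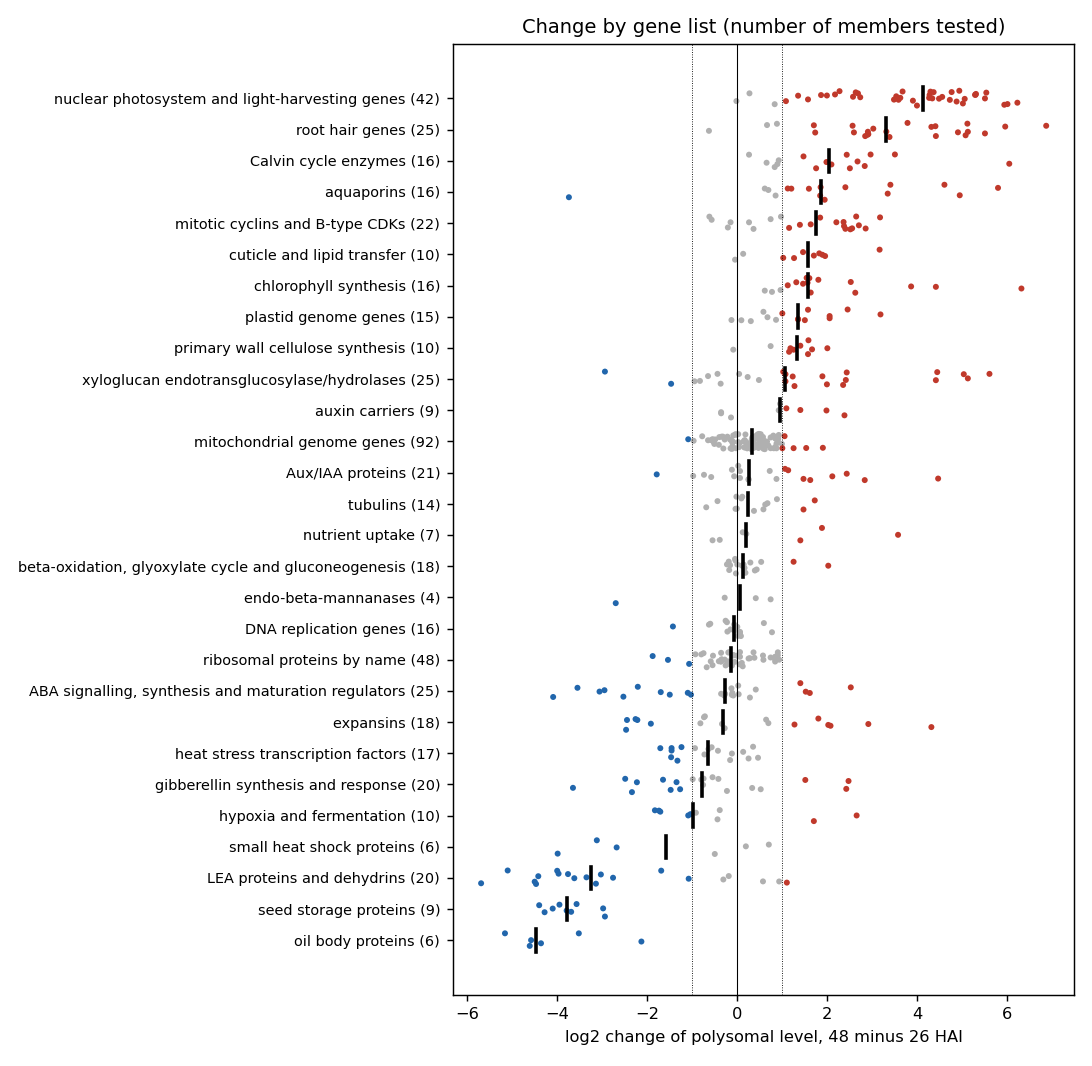
Log2 change of polysomal level, 48 minus 26 HAI, of every tested member of 28 gene lists, with members called higher in red, lower in blue and not called in grey; black bars are list medians and dotted lines mark a log2 change of 1 in size. Photosystem and root hair genes lie furthest to the right with medians of 4.13 and 3.31, and oil body and storage protein genes furthest to the left with medians of -4.47 and -3.79.

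Of 31 listed genes of abscisic acid synthesis, signalling and seed maturation, 25 were tested, with a median of -0.27. Of the 25, 10 fell, where 14.6% of genes tested did, 4 rose, a share near the 14% of all genes tested, and 11 were not called. On all 6 polysomal arrays 7 of the 25 were at or below the noise level. ABI5 (AT2G36270), a bZIP factor that holds back germination, was at 8.73, 8.19 and 8.22 and then at 4.69, 4.90 and 4.90, a fall of 3.55 with a standard error of 0.18 and an adjusted p of 9.84e-15. ABI3 (AT3G24650) fell by 3.06 and ABI4 (AT2G40220) by 2.53, both transcription factors of abscisic acid signalling in the seed. EEL (AT2G41070), a further bZIP factor of the seed, fell by 1.1. FUS3 (AT3G26790), a regulator of seed maturation, changed by 0.41 below the noise level and was not called, and LEC1, LEC2 and DPBF2 were not tested. AHG1 (AT5G51760), a seed protein phosphatase 2C that restrains abscisic acid signalling, was at 7.83, 7.90 and 8.10 and then at 3.98, 3.80 and 3.77, at least 15.4-fold lower. The related phosphatase ABI1 (AT4G26080) went the other way, from 6.69, 6.93 and 6.58 to 8.33, 8.49 and 8.19. CYP707A1 (AT4G19230), which breaks abscisic acid down, rose from 3.06, 3.38 and 3.12 to 6.06, 5.23 and 5.82, at least 3.25-fold. The levels of ABI5, AHG1, ABI1 and CYP707A1 did not overlap between the times. Among all genes tested, 28% lay without overlap higher at 48 HAI and 35.4% lower.

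Of 20 tested genes of gibberellin synthesis and response, 8 fell, where 14.6% of genes tested did, with a median of -0.78. A further 3 rose, a share near the 14% of all genes tested. RGL2 (AT3G03450), the DELLA repressor best known from seed germination, was at 8.96, 9.16 and 9.60 and then at 7.01, 6.83 and 6.85, a fall of 2.34 with a standard error of 0.17. The DELLA genes RGL3 (AT5G17490) and GAI (AT1G14920) fell by 2.23 and 1.65. GA20OX3 (AT5G07200), a gibberellin synthesis enzyme, went from 6.82, 6.66 and 6.98 to 3.49, 3.53 and 2.51, at least 7.07-fold lower. GA3OX2 (AT1G80340), which makes the active hormone, changed by -0.75 and was not called. The receptor gene GID1B (AT3G63010) rose from 4.72, 5.12 and 4.92 to 7.24, 7.63 and 7.31. Of the small gibberellin-responsive peptides, GASA4 (AT5G15230) changed by 2.42, while GASA6 (AT1G74670) fell by 2.49 after a change of 6.03 in the interval from 6 to 26 HAI, where GASA4 had changed by 5.14.

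Photosynthesis genes made up the list with the largest median rise of the 28. Of 46 nuclear genes for photosystem subunits and light-harvesting proteins, 42 were tested, 39 rose, with a median log2 change of 4.13 where 14% of genes tested rose. By limma's test none fell, and none was lower at an unadjusted p under 0.05. Their mean level was 4.81, 4.75 and 4.68 on the 26 HAI arrays and 8.36, 8.45 and 8.47 on the 48 HAI arrays. LHCB5 (AT4G10340), a light-harvesting protein of photosystem II, was at 4.89, 5.23 and 5.02 and then between 10.92 and 11.01. PSAK (AT1G30380), a photosystem I subunit, was at 3.20, 2.99 and 3.25 and then at 8.92, 9.06 and 9.46, at least 35.4-fold higher. CAB1 (AT1G29930) changed by 5.53, with the limit that the near-identical CAB genes could share probes. CAB2 (AT1G29920), listed as a marker of green cotyledons, stayed below noise on all 6 arrays, between 1.22 and 2.19, and was not tested. Of the other 2 such markers, RCA (AT2G39730) changed by 2.67 and was called, while RBCS1A, given below, was not. Of 16 Calvin cycle genes 11 rose, with a median of 2.03. PRK (AT1G32060), phosphoribulokinase, went from 4.20, 3.78 and 4.60 to 7.42, 7.69 and 7.96. The small subunit genes of Rubisco, also alike in sequence, differed. RBCS1B (AT5G38430) was at 4.45, 2.92 and 2.58 and then at 9.47, 9.33 and 9.28, while RBCS1A (AT1G67090) was already at 10.86, 10.74 and 10.94 and changed by 0.83, with an adjusted p of 0.000172 but a size under the limit. Of 16 chlorophyll synthesis genes 13 rose, with a median of 1.58. GUN5 (AT5G13630), a subunit of magnesium chelatase, was at 4.60, 4.73 and 4.34 and then at 8.72, 9.16 and 9.04. PORB (AT4G27440) and HEMA1 (AT1G58290), a glutamyl-tRNA reductase, changed by 3.86 and 2.62. Of the 15 plastid genome genes measured, 9 rose, with a median of 1.35, led by ATCG00250 at 3.18 and ATCG00240 at 2.45; these 15 held 13 distinct profiles, since 2 pairs had identical values.

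Of 33 listed root hair genes 25 were tested, and 22 rose, where 14% of genes tested did, with a median of 3.31. By limma's test none fell, and 1 was lower at an unadjusted p under 0.05. The mean level of the 25 was 2.54, 2.58 and 2.62 at 26 HAI and 6.09, 5.97 and 6.01 at 48 HAI. On the dry seed and 6 HAI polysomal arrays it lay between 2.48 and 2.80. A member low until 48 HAI could enter the test only through a group where it was high. The count of 22 of 25 is thus a description, and the 14% does not serve as a test of it. RSL4 (AT1G27740), the transcription factor that sets root hair growth, was at 1.72, 1.70 and 2.10 and then at 5.47, 5.64 and 5.73, at least 3.06-fold higher. PRP3 (AT3G62680), a proline-rich wall protein of root hairs, was at 2.38, 2.22 and 2.53 and then at 8.12, 7.72 and 7.77, at least 14.6-fold higher. The groups were far apart for both. LRX1 (AT1G12040), a leucine-rich extensin, changed by 5.11, the peroxidase RHS19 (AT5G67400) by 5.95, COW1 (AT4G34580) by 3.31, and RHD2 (AT5G51060), the NADPH oxidase of the growing hair tip, by 2.59. RHD6 (AT1G66470), which acts before RSL4 in specifying the hair cell, was at 5.60, 5.80 and 5.83 and then at 4.92, 5.53 and 4.89, and was not called. All 6 root hair markers, which are members of this list, rose. In the next interval, from 48 to 72 HAI, 19 of the 25 genes fell, where 7.34% of genes tested did, and without the array that stood apart the number was 21.

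Of 16 tested aquaporins, which are water channels, 12 rose, 1 fell and 3 were not called, with a median of 1.85. The fall was that of TIP3;1 (AT1G73190), the water channel of protein storage vacuoles, from 7.27, 7.37 and 8.30 to 4.20, 3.49 and 4.03. TIP2 (AT3G26520), GAMMA-TIP (AT2G36830) and DELTA-TIP (AT3G16240), water channels of the vacuole in vegetative tissue, changed by 5.79, 4.94 and 4.60. GAMMA-TIP was at 3.05, 3.23 and 3.81 at 26 HAI and at 8.62, 8.14 and 8.15 at 48 HAI. Of 12 nutrient uptake genes 7 were tested and 3 rose, led by the phosphate transporters PHT1;1 (AT5G43350), which changed by 3.57, and PHT1;4 (AT2G38940), by 1.88; both belong to a family of similar sequences.

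Of 18 tested expansins, proteins that let walls extend, 6 rose and 5 fell, with a median of -0.31. EXPA15 (AT2G03090) was at 8.0, 8.22 and 8.82 and then at 6.32, 5.96 and 5.35, EXPA8 (AT2G40610) fell by 2.45, EXPA2 (AT5G05290) by 2.22 and EXPA1 (AT1G69530) by 1.92. EXPA2 had been called higher from 6 to 26 HAI by 5.50, EXPA15 by 4.78 and EXPA1 by 4.63. EXPA18 (AT1G62980), a root hair expansin, was at 2.69, 2.57 and 2.93 and then at 7.05, 6.90 and 7.17, at least 8.22-fold higher, and EXPA7 (AT1G12560) was at least 2.92-fold higher. Both fell from 48 to 72 HAI, by 1.95 and 1.20. Of 25 tested xyloglucan endotransglucosylase/hydrolases, which recut wall xyloglucan, 15 rose and 2 fell, with a median of 1.07. XTH7 (AT4G37800) was at 1.13, 1.19 and 2.14 and then at 7.52, 6.85 and 6.88, and XTH14 (AT4G25820) changed by 5.12. XTH25 (AT5G57550) and TCH4 (AT5G57560) were the members that fell, by 2.94 and 1.47; without replicate 2 at 26 HAI, or without replicate 1 at 48 HAI, 4 members fell. Of 10 genes of cellulose synthesis in the primary wall 8 rose, with a median of 1.33. POM1 (AT1G05850), a chitinase-like protein needed for cellulose, was at 5.42, 5.39 and 5.78 and then at 7.65, 7.64 and 7.32, and the cellulose synthase genes CESA6 (AT5G64740) and CESA1 (AT4G32410) changed by 1.66 and 1.15.

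Of 3 endosperm markers 2 fell, where 14.6% of genes tested did. MAN7 (AT5G66460), a mannanase that softens the endosperm, was at 6.75, 6.75 and 7.36 and then at 4.85, 3.45 and 4.45, and EPR1 (AT2G27380), an extensin-like protein of the endosperm, was at 9.01, 8.53 and 8.68 and then at 7.15, 6.95 and 6.51. Their falls were 2.70 and 1.88. The third endosperm marker, MAN6 (AT5G01930), changed by -0.28 and was not called, and MAN7 was the 1 member called among 4 mannanases tested, whose median was 0.06. Of the 5 seed coat markers, MUM4 (AT1G53500), a rhamnose synthesis gene of mucilage that other cells also use, was tested and changed by 0.73 without a call. TT10, BAN, MYB5 and TT12 stayed between 1.12 and 2.68 on the 6 arrays, below noise.

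Of 30 listed cyclins, B-type kinases and genes of mitosis and cytokinesis, 22 were tested and 14 rose, where 14% of genes tested did, with a median of 1.74. By limma's test none fell, and 2 were lower at an unadjusted p under 0.05. SYP111 (AT1G08560), the syntaxin of the cell plate also known as KNOLLE, was at 3.34, 3.88 and 3.16 and then at 6.78, 6.27 and 6.86, at least 6.21-fold higher. CYCB1;3 (AT3G11520), a mitotic cyclin, was at 2.43, 2.49 and 2.95 and then at 5.69, 5.38 and 5.34. HIK (AT1G18370), a kinesin of cytokinesis, and CDC20.1 (AT4G33270), an activator of the anaphase-promoting complex, changed by 2.51 and 2.70. CYCB1;1 (AT4G37490), a marker of dividing cells, was at 4.92, 4.79 and 5.08 and then at 5.42, 4.95 and 5.19, and was not called, while the marker CDKB2;1 (AT1G76540) changed by 1.63. Of 16 DNA replication genes 1 fell, with a median of -0.07, after 15 had risen from 6 to 26 HAI, where 14.7% of genes tested did. By limma's test none rose from 26 to 48 HAI, and 2 were higher at an unadjusted p under 0.05. PCNA1 (AT1G07370), the sliding clamp of the replication fork, was at 7.25, 7.37 and 7.35 and then at 7.56, 7.34 and 7.26, overlapping levels, after a change of 4.84 in the earlier interval. MCM2 (AT1G44900), a helicase subunit, changed by -0.63 without a call. The member that fell was ORC1A (AT4G14700), of the origin recognition complex, by 1.43. Of 14 tubulins 2 rose, a share near the 14% of all genes tested, with a median of 0.24. From 6 to 26 HAI 10 of them had risen, where 14.7% of genes tested did. TUB5 (AT1G20010) and TUB1 (AT1G75780) changed by 1.72 and 1.47.

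Auxin response and cuticle genes rose in part. Of 29 Aux/IAA genes, repressors that auxin removes, 21 were tested, 8 rose and 1 fell, with a median of 0.25. AXR3 (AT1G04250) was at 3.74, 3.89 and 3.82 and then at 8.25, 8.30 and 8.30, at least 19.5-fold higher. IAA28 (AT5G25890) and IAA7 (AT3G23050) changed by 2.83 and 2.43. PAP2 (AT4G29080) fell by 1.79, and 2 members fell without replicate 1 at either time. Of 9 tested auxin carriers 4 rose, among them the influx carrier LAX3 (AT1G77690) at 2.38 and the efflux carrier PIN4 (AT2G01420) at 1.98. Of 10 tested genes of the cuticle and lipid transfer 8 rose, with a median of 1.58. LP1 (AT2G38540), a lipid transfer protein of the epidermis, was at 5.90, 5.90 and 6.12 and then at 9.30, 8.82 and 9.28. CER1 (AT1G02205) and CER3 (AT5G57800), which make wax alkanes, changed by 1.95 and 1.82.

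Of 6 tested small heat shock proteins 3 fell, where 14.6% of genes tested did, with a median of -1.59. The 3 not called were at or below the noise level on all 6 polysomal arrays, so a fall could not have been seen in them. HSP17.6A (AT5G12030), a seed-expressed chaperone, was at 8.99, 8.54 and 8.86 and then at 5.38, 3.71 and 5.34, and HSP17.4 (AT3G46230) fell by 3.12. Of 17 heat stress transcription factors 6 fell, where 14.6% of genes tested did, and 11 were not called. HSFA9 (AT5G54070), the seed-specific factor, was at 4.48, 4.41 and 4.48 and then at 2.76, 2.75 and 2.72, and HSF1 (AT4G17750) fell by 1.47. All 6 lost their call under limma's treat test against a 2-fold change. Of 10 hypoxia genes 5 fell and 2 rose, where 14.6% and 14% of genes tested did. LBD41 (AT3G02550) and AT5G39890, a plant cysteine oxidase, fell by 1.83 and 1.74, and ADH1 (AT1G77120), alcohol dehydrogenase, by 1.04. SUS4 (AT3G43190) and SUS1 (AT5G20830), sucrose synthases, changed by 2.65 and 1.70. Without replicate 3 at 48 HAI the number that fell was 3.

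Of 18 genes of beta-oxidation, the glyoxylate cycle and gluconeogenesis, which turn seed oil into sugar, 2 rose and 16 were not called, with a median of 0.12. ICL (AT3G21720), isocitrate lyase, was at 11.61, 11.60 and 11.72 and then at 11.97, 11.95 and 11.89, a log2 change of 0.29 with a standard error of 0.10. MLS (AT5G03860), malate synthase, changed by 0.10 and PCK1 (AT4G37870), which commits carbon to sugar, by 0.18. The 2 members that rose were PMDH2 (AT5G09660), a peroxisomal malate dehydrogenase, by 2.02, and ACX1 (AT4G16760), an acyl-CoA oxidase, by 1.25. Of 48 ribosomal protein genes found by name 45 were not called and 3 fell, where 14.6% of genes tested did, with a median of -0.13. From 6 to 26 HAI 20 of them had risen, where 14.7% of genes tested did. RPSAb (AT3G04770) was at 7.59, 7.58 and 7.48 and then at 5.61, 5.59 and 5.81, and RPL3B (AT1G61580) fell by 1.54. Both have close paralogs in the genome.

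**Figure D4:**
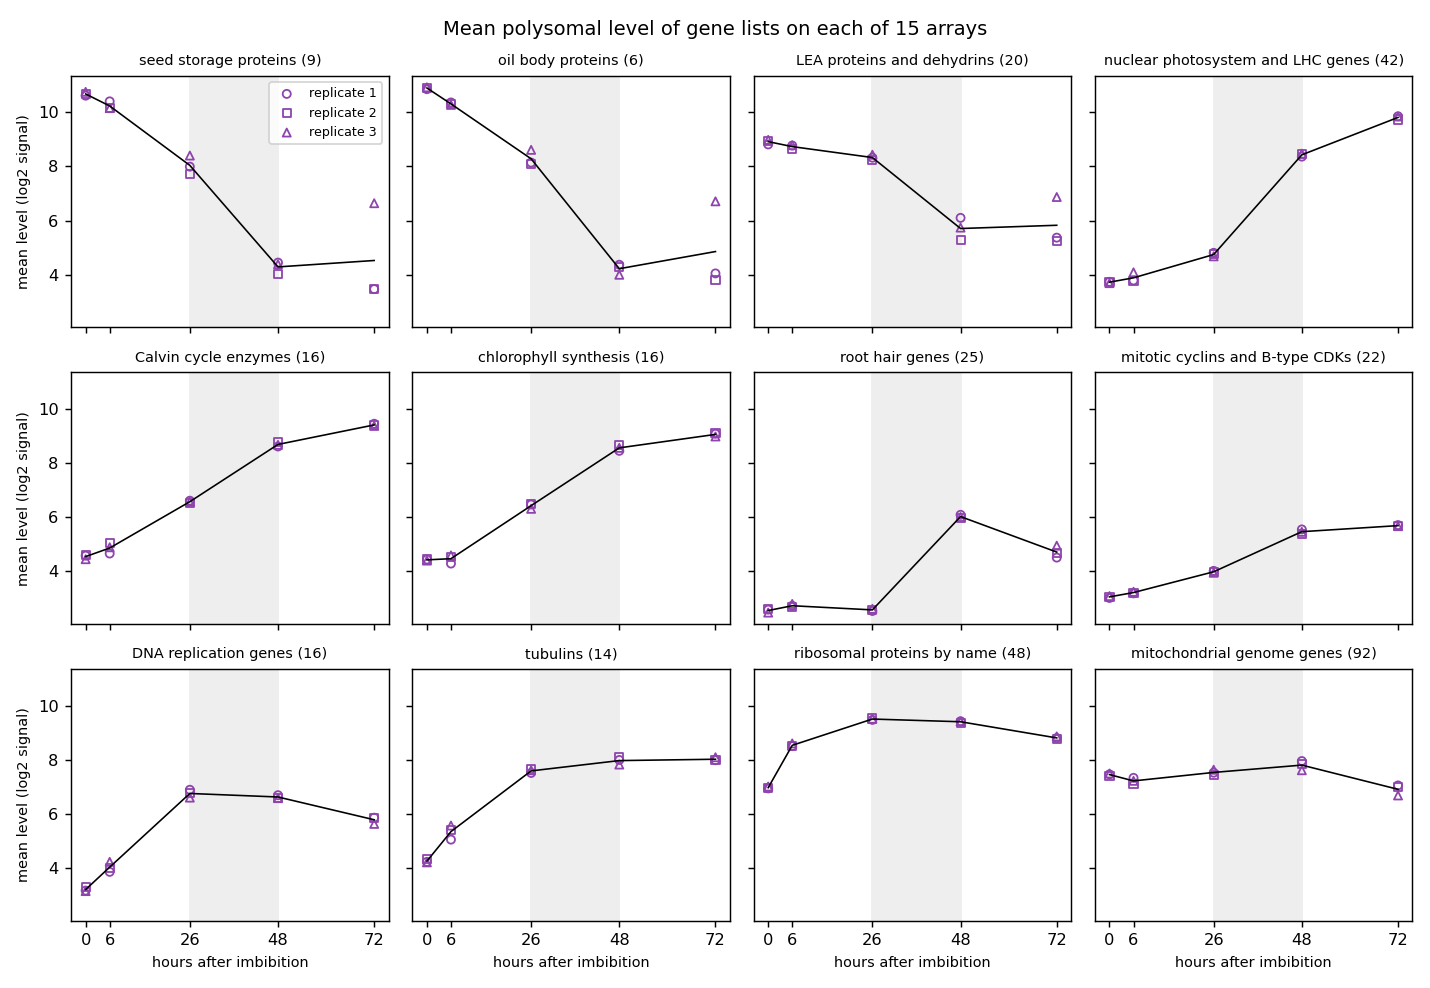
Mean polysomal level (log2 signal) of the tested members of 12 gene lists on each polysomal array against hours after imbibition; symbols are replicates, the line joins group means and the band marks the interval from 26 to 48 HAI. Root hair genes rise inside the band from mean levels of 2.54 to 2.62 and fall after it, replication genes and tubulins rise before it, and replicate 3 at 72 HAI stands above the other arrays for the storage, oil body and LEA lists.

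Set beside the neighbouring intervals, which share arrays with this one, the lists differed in when they moved. From 26 to 48 HAI the photosystem list had a median of 4.13; from 6 to 26 HAI it was 0.68, and from 48 to 72 HAI it was 1.38 with 32 genes higher, where 6.52% of genes tested rose. Calvin cycle genes had medians of 1.58, 2.03 and 0.76 in the order of the intervals, and chlorophyll synthesis genes 2.10, 1.58 and 0.44. The root hair list had -0.07, 3.31 and -1.37, the replication list 2.80, -0.07 and -0.91, and the tubulins 2.22, 0.24 and -0.02. Storage protein genes, of which 8 of 9 had fallen from 6 to 26 HAI, where 9.77% of genes tested did, had -2.34, -3.79 and 0.22, the last of which was -0.58 without the 72 HAI array that stood apart.

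In total mRNA of the same times 2608 genes (15.3%) were higher and 2548 (14.9%) lower. Of the genes called in the polysomal fraction, 1888 were higher in both and 1644 lower in both, and 5 were lower in the polysomal fraction and higher in total mRNA. The difference of the 2 changes was tested in the same fit, and 187 genes (1.1%) had a higher polysomal change and 563 (3.3%) a lower one. Of the 4892 genes called in the polysomal fraction, 266 (5.44%) were also called for the difference: 67 higher in both tests, 155 lower in both, 36 whose polysomal rise was smaller than that of total mRNA, and 8 whose fall was smaller. The difference contains the polysomal arrays that gave the call, so the signs of the tests are not independent.

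CDKB2;2 (AT1G20930), a B-type kinase of the G2 to M transition, rose in polysomes from 3.46, 2.36 and 2.32 to 5.13, 5.08 and 5.13, at least 2.16-fold. Its total mRNA, between 2.82 and 3.54, was below noise on all 6 total arrays, so a change there could not be measured. The fitted difference was 2.36 with an adjusted p of 0.000309. ARR6 (AT5G62920), a cytokinin response regulator, was at 1.58, 1.92 and 1.80 and then at 4.91, 5.22 and 4.97, a change of 3.27 beside 1.63 in total mRNA. QUL2 (AT2G03480), named as like QUASIMODO2, changed by 1.38 in polysomes and -0.29 in total mRNA, and AT4G00780 and AT4G18940 had differences of 1.80 and 1.73. All 5 genes were at or below noise on each polysomal array at 26 HAI, and so were their total levels at 26 HAI except that of QUL2 on 1 array, at 4.01. In the other direction, HSP17.6II (AT5G12020), a small heat shock protein, went from 4.52, 4.30 and 4.02 to 1.65, 1.14 and 1.99 in polysomes, while its total mRNA was fitted as changing by 1.42, from 2.83, 2.78 and 2.09 to 3.83, 4.19 and 3.94. Total levels at 26 HAI and polysomal levels at 48 HAI were all below noise, so a fall in total mRNA could not have been seen. The fitted difference was -4.10 with an adjusted p of 1.01e-06. AT4G18690 went from 7.20, 6.72 and 6.99 to 3.28, 2.15 and 3.28, at least 7.84-fold lower, beside -0.32 in total mRNA. AT2G18540 went from 4.81, 4.90 and 5.09 to 2.4, 2.2 and 2.53, beside 0.37 in total mRNA. AT1G16770 changed by -3.66 in polysomes and -0.89 in total mRNA. AT1G78500 was below noise on all 6 polysomal arrays, between 1.25 and 3.04, and lost its polysomal call without several single arrays.

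**Figure D5:**
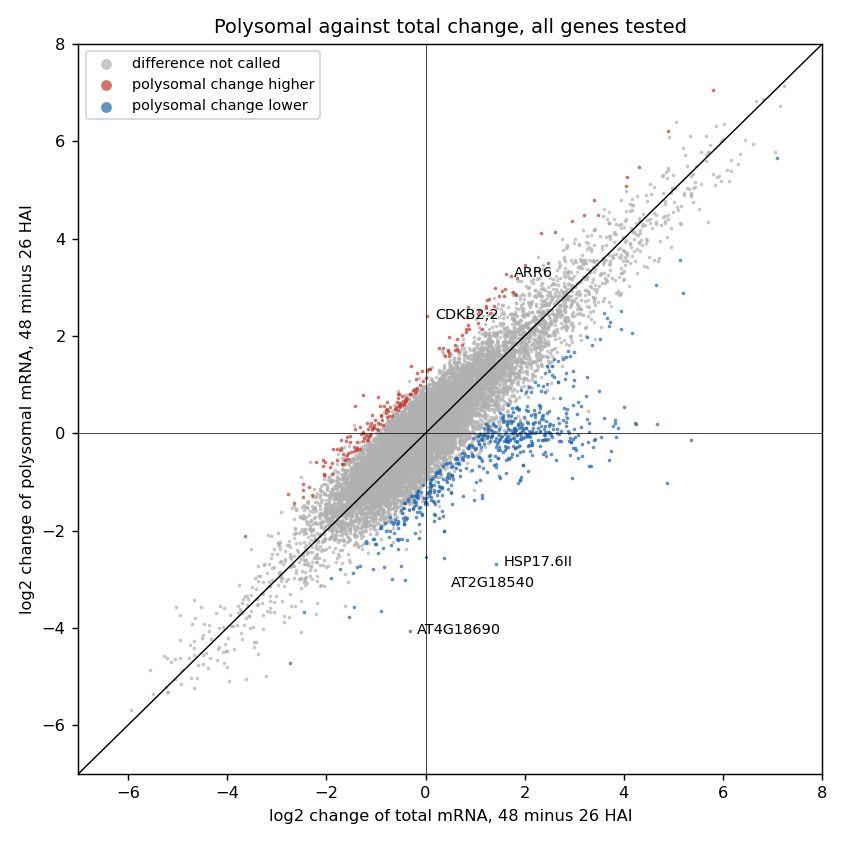
Log2 change of polysomal mRNA against that of total mRNA, both 48 minus 26 HAI, for 17061 genes; the solid line marks equal changes, and genes called for the difference are red where the polysomal change was higher and blue where it was lower. Most genes lie along the line, and a group of blue genes lies along a polysomal change of 0 with total changes above 1.

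The mitochondrial genome genes, the largest list, were the list with the most called differences. All 92 were tested. In polysomes 5 rose and 1 fell, where 14% and 14.6% of genes tested did, with a median of 0.32. In total mRNA 33 rose, where 15.3% of genes tested did, with a median of 0.48. The polysomal change was called lower than the total change for 22 of the 92, where it was for 3.3% of genes tested. It was called higher for 2, where it was for 1.1% of genes tested. ATMG00380 was at 7.72, 7.86 and 8.33 and then at 9.98, 10.05 and 9.59 in polysomes, and ATMG01070 changed by 1.53. ATMG01030 fell by 1.09 with an adjusted p of 0.0291, and its nearest arrays stood at 4.99 at 26 HAI and 4.88 at 48 HAI. The number of mitochondrial genes that rose was 11 without replicate 3 at 26 HAI, 10 without replicate 3 at 48 HAI and 3 without replicate 2 at 26 HAI.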

How the data were processed

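The 6 polysomal arrays at 26 and 48 HAI were compared within a table of 30 Affymetrix Arabidopsis Gene ST arrays. The deposited values are log2 signals, made by the authors with RMA (background correction, quantile normalization between arrays and summarization to 1 value per gene with a custom probe annotation), 1 column per array, with no noise filter applied and no column left unused. Quantile normalization gives all arrays the same distribution, so a global shift of the polysomal fraction cannot be seen. The labels and the methods name different labelling kits, and which was used is not settled here. Arrays have no read depth, and the number of replicates limits precision. No column of the authors' own comparisons was present.

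One mean per group was fitted to all 30 arrays with limma 3.58.1 in R 4.3.3 (lmFit and eBayes, two-sided moderated tests, Benjamini-Hochberg adjustment over the 17061 genes tested). The linear model and thresholds followed the study's methods. For the noise filter, the study's methods removed genes never above 4, while its results kept genes above 4 in every replicate of some time point. The rule used here was close to the latter: all 3 replicates of 1 of the 10 groups had to exceed 4. The number of genes that passed differed from the study's. With 1 array above 4 sufficing, 19085 genes were tested, 2628 higher and 2582 lower. Contrasts were 48 minus 26 HAI in polysomal mRNA, in total mRNA, their difference, and the neighbouring polysomal intervals. The fit was tested on simulated data. Locus IDs were named from the RefSeq gene table (TAIR10.1), which held 16839 of the genes tested. 182 loci had values identical to another locus, 173 of them tested. Figures were drawn with matplotlib 3.10.9.

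Genes were named by rule: the 12 largest rises and 12 largest falls among called genes without overlap, the 2 largest called rises and falls of each list, the 5 largest differences from total mRNA in each direction, and the cell type markers. Other list members were named after their values were seen. Lists were matched by symbol or synonym, and 8 loci whose matching name belongs to another kind of gene (disease resistance genes named RPS, auxin response factors with an IAA synonym) were left out. A further 8 listed entries, among them CRU4, OLEO5 and DVR, were left out because the RefSeq table did not carry that name for the locus. The members and lists were chosen with earlier results of these data known. Alternatives were other noise filters, array scalings, subsets of arrays, the replicate block, variance settings, array weights, the treat test and leaving out each array.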

Additional observations from a re-analysis of the deposited data

Results flagged for a closer look

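For 15 of the genes named, the change in polysomal mRNA from 26 to 48 HAI differed from the change in total mRNA by the contrast of the 2 changes itself (limma, adjusted p under 0.05 and size above 1); 10 of them were named for that difference. The polysomal change was higher by 2.36 for CDKB2;2, by 1.80 for AT4G00780, by 1.73 for AT4G18940, by 1.67 for QUL2 and by 1.63 for ARR6. It was also higher by 1.33 for PSBQ-2, by 1.26 for AT5G04120 and by 1.03 for CYCB1;3, each of which rose in both fractions. The polysomal change minus the total change was -4.10 for HSP17.6II, -3.75 for AT4G18690, -2.93 for AT2G18540, -2.91 for AT1G78500 and -2.77 for AT1G16770. It was -1.88 for LTI30 (AT3G50970), a dehydrin whose polysomal levels went from 4.02, 4.17 and 4.74 to 2.65, 2.25 and 2.98 while its total mRNA was below the noise level on all 6 arrays, between 1.86 and 2.68. It was -1.28 for HSF1, whose total mRNA lay between 2.89 and 4.10. For 8 genes, CDKB2;2, AT4G00780, AT4G18940, QUL2, ARR6, PSBQ-2, AT5G04120 and CYCB1;3, all 3 polysomal levels at 26 HAI were below the noise level, so the size of the difference depends on signals near background. For the 7 genes with a lower polysomal change, all 3 polysomal levels at 48 HAI were below it, and AT1G78500 was below it on all 6 polysomal arrays. Total mRNA was below it on all 6 total arrays for CDKB2;2, AT4G18940 and LTI30, and on all 3 at 26 HAI for HSP17.6II, AT1G78500, AT4G00780, ARR6, AT5G04120 and CYCB1;3. In HSF1 and QUL2, 1 of the 6 total arrays was above it. For such genes a change in total mRNA could be measured in part or not at all.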

How the results depend on the processing

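No gene changed direction between calls under any setting run. The counts of 2393 genes higher and 2499 lower moved by more than 1.5 times under limma's treat test against a 2-fold change, to 1265 and 864, and when genes had to be above 4 on all polysomal arrays of both times, a filter added after seeing the data that removes genes crossing the noise level, to 909 and 1473. Under the other filters, scalings, subsets, weights and variance settings they lay between 1955 and 2746 and between 2250 and 2969. Leaving out each array of the comparison gave 2308 to 2446 higher and 2361 to 2698 lower. The 266 genes called for both the polysomal change and its difference from total mRNA became 5 under treat and 59 under the added filter, 365 with array quality weights, 288 without replicate 3 of polysomal mRNA at 72 HAI, and 166 to 283 when single arrays of the 4 groups at 26 and 48 HAI were left out, lowest without total replicate 3 at 26 HAI and 172 without polysomal replicate 1 at 26 HAI. With the replicate block the counts were 2393, 2500 and 276. Same-numbered arrays of the 2 times had correlations of 0.11, 0.03 and -0.03 between their deviations, so the numbers were not taken as pairs. A block shared by both fractions at each time, added after seeing the data, gave 2393, 2500 and 288. The 143 single-gene values of the main fit were each compared with their value under the other settings. Of these pairs of value and setting, 29 lost the call with the same direction and 3882 kept it. Many of the genes were named for large called changes, so this count does not show how calls hold over all genes. ADH1 changed by -0.96 without replicate 1 at 26 HAI, by -0.92 without replicate 3 at 48 HAI and by -0.90 after further quantile normalization, all under the size limit. The cause of these moves was not tested. Signals near the noise level limit precision: 1496 genes tested were above 4 on none of the 6 arrays, and 169 of them were called.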

Other observations

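A further 316 genes rose in total mRNA from 26 to 48 HAI, were not called in polysomes and had a lower polysomal change by the test of the difference. They were chosen by these values, so the values are a description. Their median level was 2.81 at 26 HAI and 5.04 at 48 HAI in total mRNA. On the polysomal arrays it was 2.52 and then 2.46. The median change from 48 to 72 HAI was 0.13 in total and 0.09 in polysomal mRNA. Of the 316, 243 were above the noise level on none of the 6 polysomal arrays, 19 were mitochondrial genome genes and 1 a plastid genome gene. Among all 17061 genes tested these numbers were 1496, 92 and 15. For the 243, a polysomal change below the noise level could not be measured. RefSeq lists 250 of them (79.1%) as protein coding, against 96.5% of all genes tested, 11 (3.48%) as pseudogenes, against 0.252%, and 45 (14.2%) were not found in its table, against 1.3%. AT2G11778, the member with the largest total change, was at 2.56, 2.16 and 2.3 and then at 7.98, 8.01 and 7.10 in total mRNA, and between 1.59 and 2.12 on the 6 polysomal arrays. AT4G08370 was at 6.24, 2.03 and 2.2 and then at 8.44, 8.69 and 7.93 in total mRNA, with replicate 1 at 26 HAI high, and between 1.48 and 2.73 in polysomes. Both were chosen after their values were seen.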
